A study of Mus musculus with 10 samples.

Results

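The antioxidant genes described here are those that make, use and recycle glutathione, the peroxiredoxins and the thioredoxin system, together with the superoxide dismutases and catalase. They were picked by a rule on gene symbols that uses no measured value, though it was set with earlier results of these data known. It took the glutathione transferases (Gsta, Gstk, Gstm, Gsto, Gstp and Gstt classes and Mgst1 to Mgst3), Gpx1 to Gpx8, Prdx1 to Prdx6, Sod1 to Sod3, Txn1, Txn2, Txnrd1 to Txnrd3, Txnip, Cat, Gsr, Gclc, Gclm, Gss, Nqo1 and Hmox1, with pseudogenes left out. The rule found 55 of 54256 rows in the expression table. RNA came from the infundibulum, the fringed funnel at the ovarian end of the oviduct, of C57BL/6 mice aged 8 to 10 weeks that had received recombinant murine prolactin (rmPRL) or, as controls labelled WT, saline, over 7 days. Each of the 5 libraries in a group pooled 4 infundibula of 2 animals, so a library is an average over animals, and dose and route are not given in the sources used here. By their stage labels rmPRL library 2 was from diestrus and the other 9 libraries from proestrus. All values are TPM, transcript levels per length with nearly the same total in each library; TPM keep no depth, so the counting error of a value is unknown. The stated depth was 80 M reads per library, and libraries within and between groups correlated at 0.961 to 0.988.

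Cells turn superoxide into hydrogen peroxide with superoxide dismutases, and remove the peroxide with catalase, glutathione peroxidases and peroxiredoxins. Glutathione peroxidases draw their electrons from glutathione and most peroxiredoxins from thioredoxin, and both carriers are returned to their reduced forms by NADPH-dependent reductases. Glutathione transferases join glutathione to reactive compounds such as products of lipid oxidation, and many of these genes are induced by the transcription factor NRF2, encoded by Nfe2l2, which binds antioxidant response elements together with small MAF proteins. In the oviduct these enzymes are known to guard eggs, sperm and embryos, which are easily harmed by oxidants.

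The infundibulum held most of these transcripts at moderate to high levels, led by the mu class transferases. Of the 55 genes, 47 entered the test (at least 1 TPM in at least 5 libraries), 23 had a mean over 100 TPM and 2, Gstm2 and Gstm1, a mean over 1000 TPM. Gstm2 ranked 41 and Gstm1 79 by mean level among all rows of the table, followed within the set by the cytosolic dismutase Sod1 at 130, Prdx1 at 197 and the thioredoxin inhibitor Txnip at 217. Together the 55 genes summed to 10288, 11728, 11081, 10641 and 10687 TPM in the saline libraries and 10829, 9724, 10292, 9706 and 9494 TPM in the rmPRL libraries, or 0.950 to 1.17% of a library's TPM. The sums overlapped, with the rmPRL libraries at 10829 and 10292 TPM within the saline range. The sums averaged 10885 ± 549 TPM (SD, n = 5) in saline and 10009 ± 545 TPM (SD, n = 5) in rmPRL. The glutathione transferases were the family with the highest sum, 5107 ± 300.0 TPM with saline and 4555 ± 411 TPM with rmPRL (SD, n = 5 each).

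**Figure D1:**
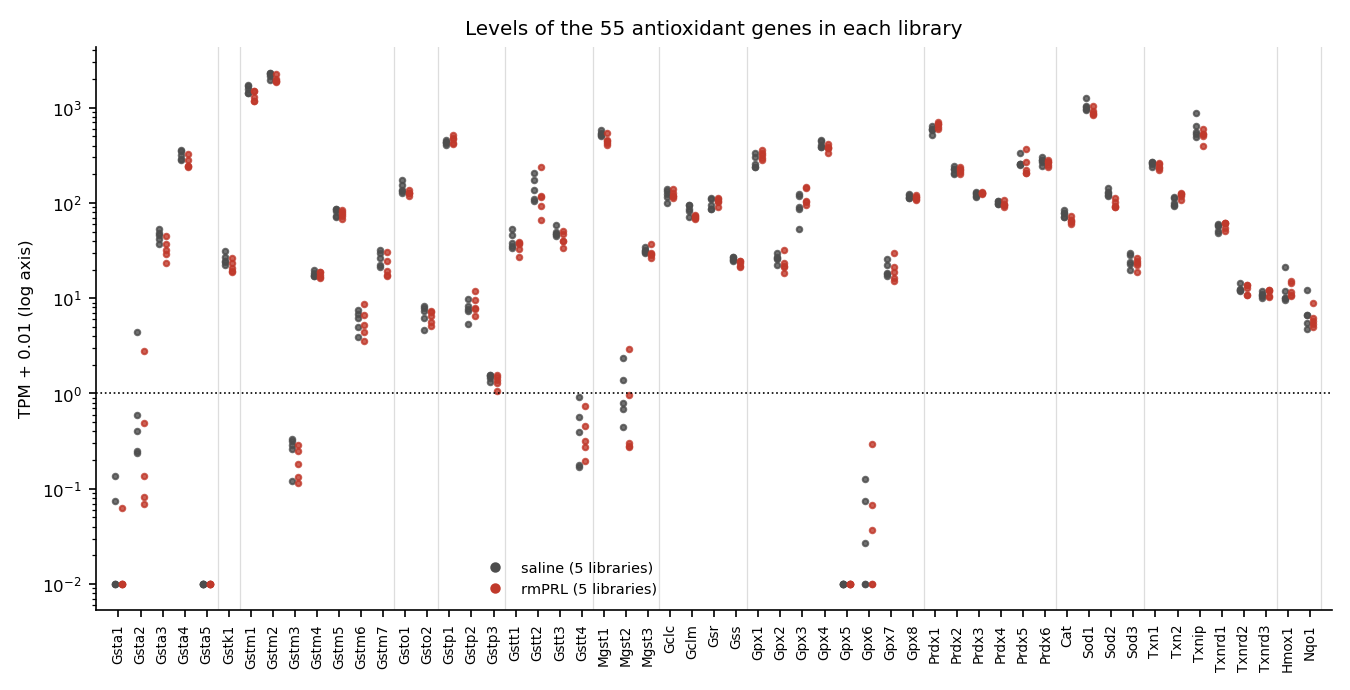
Level of each of the 55 genes in every library, on a log axis of TPM + 0.01 (grey saline, red rmPRL, dotted line at 1 TPM). The mu class genes Gstm1 and Gstm2 lie highest in both groups, the 8 genes that did not enter the test lie near or under the dotted line, and the colours overlap for nearly every gene.

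With rmPRL, 0 of the 47 tested antioxidant genes passed the limma test at an adjusted p of 0.05, where 0.0248% of all 16131 rows tested (4 rows) passed, 0.0186% higher and 0.00620% lower in rmPRL. At an unadjusted p under 0.05 stood 12 of the 47 genes (25.5%), against 16.0% of all rows. Lower in rmPRL at that level were 10 genes (21.3%, against 9.91% of all rows), namely Sod2, Cat, Gclm, Mgst1, Gsta3, Gss, Gstm1, Gsta4, Sod1 and Gstk1. Higher were 2 genes, Txn2 and Prdx1 (4.26%, against 6.14% of all rows). The mean was lower in rmPRL for 35 of the 47 genes (74.5%, against 56.5% of all rows), and the median difference was -0.09 on the log2(TPM + 1) scale, against -0.03 over all rows. With other scalings of the libraries 32 to 34 of the 47 genes had the lower mean, and only Prdx2, Gpx8 and Gstm4 turned direction. The median difference over all rows was 0.0018 with TMM, -0.0064 with quantile and -0.0049 with rescaled values, against -0.07, -0.08 and -0.07 for the antioxidant genes. With each of the 3 scalings 8 antioxidant genes were lower and 3 higher at an unadjusted p under 0.05, with Sod1 and Gstk1 lost and Gpx1 gained. These were 23.4% of the 47 genes, against 16.3%, 16.4% and 16.1% of all rows in the same order. Of only those rows that stood at that level, 61.7% were lower as deposited, 44.6% with TMM and 47.5% with quantile scaling. With rescaling after removal of mitochondrial genes and of the 50 highest rows it was 47.0%. The groups did not overlap for 1 of the 47 genes, Sod2 (2.13%, against 3.07% of all rows), which was lower in rmPRL, as were 1.57% of all rows, with 1.49% higher.

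**Figure D2:**
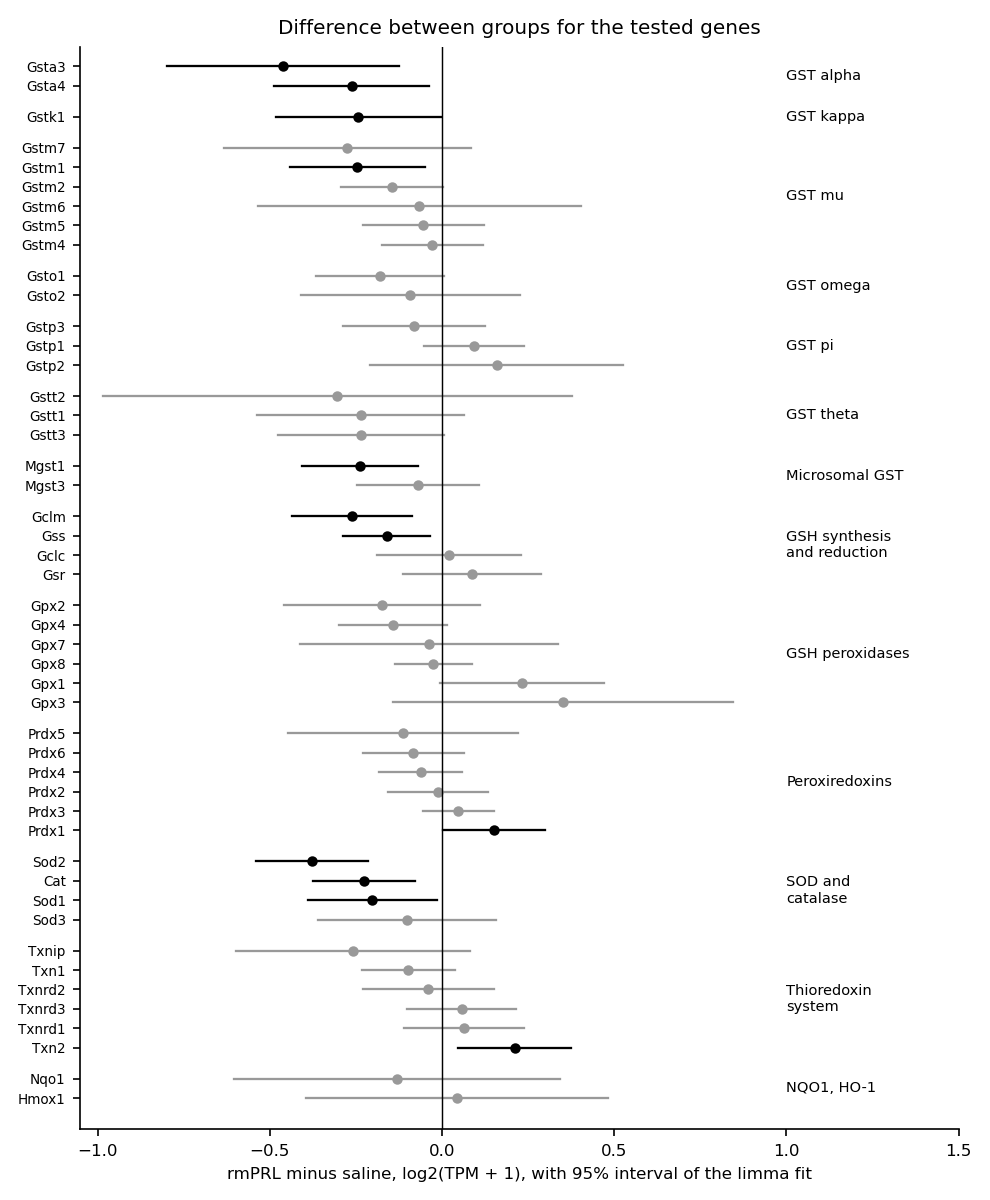
Difference rmPRL minus saline for the 47 tested genes on the log2(TPM + 1) scale, by family, with 95% intervals from limma (black points have an unadjusted p under 0.05). Most points lie left of 0, from -0.46 for Gsta3 to 0.35 for Gpx3, and 12 intervals leave out 0.

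Marker lists of fibroblasts and of secretory cells had different mean sums in the groups, though their ranges overlapped and the sums were not tested. Once either list entered the fit, fewer antioxidant genes stood at an unadjusted p under 0.05, and so did fewer of all rows. All 12 fibroblast and matrix markers were tested, 11 had the higher mean in rmPRL (1 at an unadjusted p under 0.05), none was at 0, and their sum ran from 925 to 2048 TPM with saline and 1405 to 2622 TPM with rmPRL. With the mean of that list as a covariate, 3 of the 47 antioxidant genes (6.38%) stayed at an unadjusted p under 0.05, against 8.05% of all rows. These were Sod2, Cat and Gclm. Without a covariate the shares were 25.5% of the antioxidant genes and 16.0% of all rows. Beside the marker counts given here, 56.5% of all rows had the lower mean. Of 6 oviduct secretory markers 5 were tested and 4 of them had the lower mean (1 at an unadjusted p under 0.05), Msx2 was near 0, and their sum, nearly all Ovgp1, the oviductal glycoprotein, ran from 7816 to 10732 TPM with saline and 5424 to 9617 TPM with rmPRL. The secretory list as a covariate was an alternative added after the data were seen. With it, 6 antioxidant genes (12.8%) stood at an unadjusted p under 0.05, against 8.49% of all rows. They were Sod2, Cat, Gclm and Txn2, and in addition Mgst3 and Prdx4. In whole tissue, fewer cells of a type and less RNA per cell cannot be told apart.

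Short stretches of promoter are shown for the 5 of those 12 genes whose RefSeq window holds the core of the antioxidant response element, since the pathway's best known regulator binds such letters. Windows of 250 bases before to 50 after the annotated start (GRCm38.p6) were searched on both strands for TGACNNNGC, and no other motif was searched in them. A match was found for 3781 of 27025 genes with a window (14.0%), for 8 of the 47 antioxidant genes with a window (17.0%) and for 21 of 91 other pathway genes (23.1%). Of the 12 genes, 11 had a window and 5 a match. Of the other tested antioxidant genes, 29 had a window and 3 a match (Gstm5, Gstm7 and Txnrd1), and of the genes not tested, 7 had a window and 0 a match. Below, capitals mark the match, which reads TGACNNNGC on the strand shown for Gsta3 and on the opposite strand for the others, and all 5 stretches are from the plus strand: Gclm chr3:122245393-122245461, Gsta3 chr1:21240434-21240502, Mgst1 chr6:138140441-138140509, Prdx1 chr4:116685436-116685504 and Sod1 chr16:90220676-90220744.
Gclm: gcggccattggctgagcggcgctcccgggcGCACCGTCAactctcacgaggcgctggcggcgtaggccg
Gsta3: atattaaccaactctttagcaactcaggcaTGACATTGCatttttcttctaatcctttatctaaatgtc
Mgst1: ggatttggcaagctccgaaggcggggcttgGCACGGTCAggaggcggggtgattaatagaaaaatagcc
Prdx1: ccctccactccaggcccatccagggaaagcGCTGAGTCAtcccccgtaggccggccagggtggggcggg
Sod1: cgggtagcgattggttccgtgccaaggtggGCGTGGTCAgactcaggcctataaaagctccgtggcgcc
Within the 8 matches TGACTCA, the letters that AP-1 factors bind, was looked for as well, and 1 match, that of Prdx1, holds it on the opposite strand. The 5 matches shown lie between 56 and 134 bases before the start, and a match is a description of the letters and shows no binding.

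The superoxide dismutases and catalase, which carry out the initial steps of oxidant removal, had lower means in rmPRL for 4 of 4 genes, with a median difference of -0.21. At an unadjusted p under 0.05 stood 3 of them. Of all rows, 56.5% had the lower mean and 9.91% were lower at that level. Sod2 (ENSMUSG00000006818.5, chr17:13006846-13040063, GRCm38) encodes the mitochondrial manganese enzyme and measured 117, 142, 128, 121 and 129 TPM in saline libraries 1 to 5 and 112, 93.5, 102, 91.4 and 90.2 TPM in rmPRL libraries 1 to 5. Every rmPRL library lay under every saline library, with means of 97.9 ± 9.18 and 127 ± 9.59 TPM (SD, n = 5 each). The difference was -0.38 ± 0.0738 (SE, log2 scale, 95% interval -0.54 to -0.22), with a limma adjusted p of 0.119 (unadjusted 0.000318), the smallest of the 47 genes. With the fibroblast and with the secretory covariate the Sod2 difference was -0.30 in each fit. With libraries weighted by their quality (array weights) Sod2 passed, at a limma adjusted p of 0.0367, in a fit that called 270 rows in place of 4.

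Cat (ENSMUSG00000027187.10, chr2:103453849-103485160), the peroxisomal enzyme that splits hydrogen peroxide, stood at 70.5, 84.2, 78.9, 71.4 and 78.0 TPM with saline and 63.9, 65.9, 73.5, 60.5 and 62.5 TPM with rmPRL. Of the rmPRL libraries 4 lay under the saline range and all 5 under the saline mean, and the difference was -0.23 ± 0.0674 (SE, limma adjusted p = 0.202). Sod1, the copper and zinc enzyme of the cytosol, measured 947, 1257, 1050.1, 1009.9 and 965 TPM with saline and 1035, 913, 867, 879 and 839 TPM with rmPRL. Here too 4 rmPRL libraries lay under the saline range, and saline library 2 was the highest of all. The Sod1 difference was -0.20 ± 0.0856 (SE, limma adjusted p = 0.287) and -0.13 without saline library 2, and it was -0.12 with the fibroblast covariate and -0.12 with quantile scaling. Sod3, the secreted dismutase of the matrix, averaged 24.9 ± 4.20 TPM with saline and 23.0 ± 2.73 TPM with rmPRL (SD, n = 5 each, difference -0.10, limma adjusted p = 0.676).

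**Figure D3:**
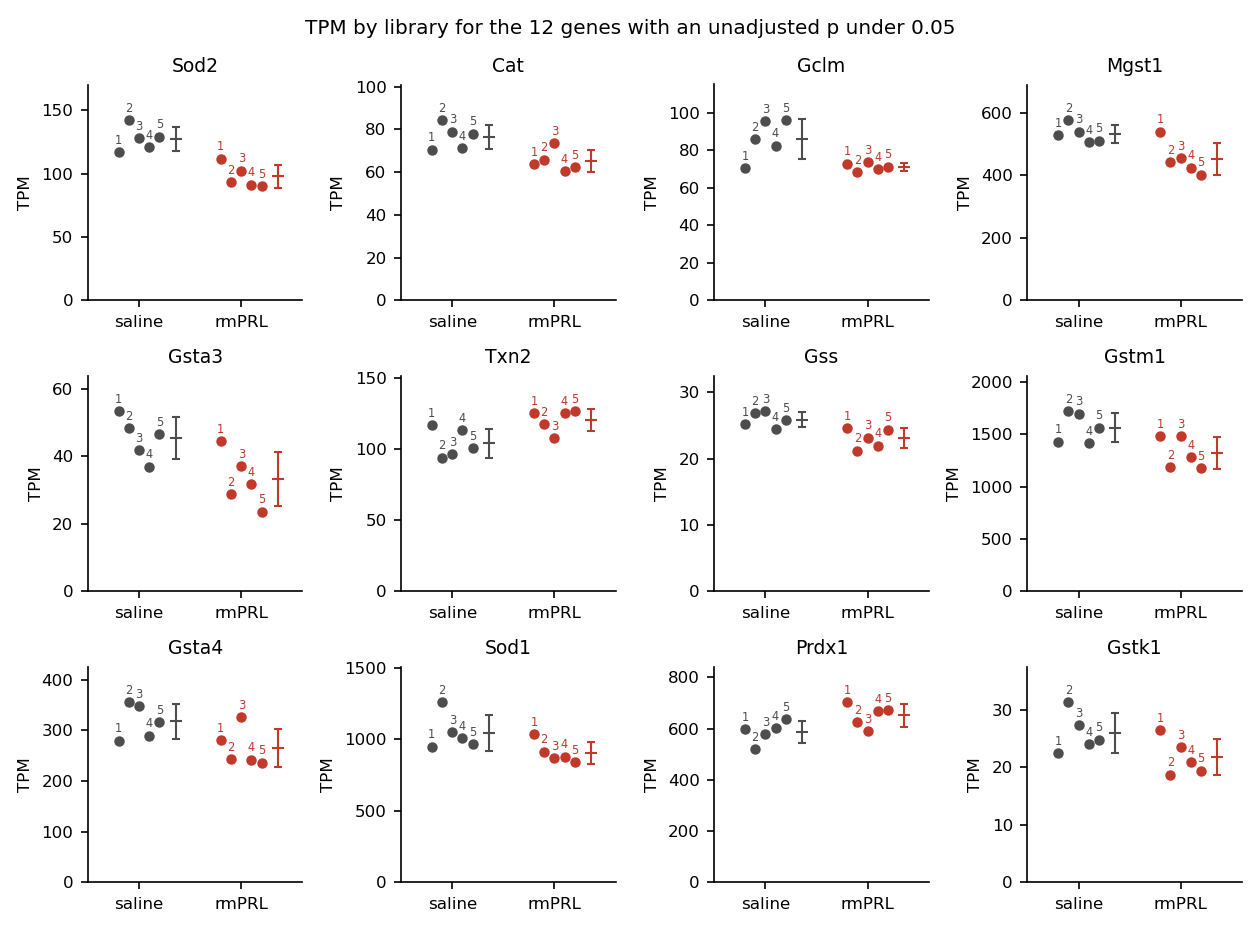
TPM per library of the 12 genes with an unadjusted p under 0.05 (points numbered by library, grey saline, red rmPRL, bars mean ± SD, n = 5). Sod2 is the gene whose groups do not overlap, at 117 to 142 TPM with saline and 90.2 to 112 TPM with rmPRL. Txn2 and Prdx1 are the 2 genes with the higher rmPRL mean.

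Among the 4 genes for glutathione synthesis and reduction, Gclm and Gss had lower means in rmPRL, while Gclc and Gsr differed by less than the spread between libraries. Gclm (ENSMUSG00000028124.15, chr3:122245557-122270732), the modifier subunit of glutamate-cysteine ligase, which sets the pace of glutathione synthesis, measured 70.6, 86.0, 95.6, 82.6 and 95.9 TPM with saline and 73.0, 68.4, 73.9, 69.8 and 71.4 TPM with rmPRL. The rmPRL libraries lay close together, all under the saline mean and 2 of them under the saline range. The saline spread was wider (86.1 ± 10.5 TPM, against 71.3 ± 2.25 TPM with rmPRL, SD, n = 5 each), and the difference was -0.26 ± 0.0792 (SE, limma adjusted p = 0.207, and 0.0444 with array weights). Its catalytic partner Gclc stood at 116, 98.8, 133, 124 and 141 TPM with saline and 113, 119, 118, 127 and 141 TPM with rmPRL. The Gclc groups covered nearly the same range, with a difference of 0.02 (95% interval -0.19 to 0.23, limma adjusted p = 0.932). A test of the Gclm difference against the Gclc difference was not run, and 244 of the 6291 exonic bases of Gclm overlap another gene model on its strand.

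Gss, the synthetase that completes glutathione, measured 25.2, 26.8, 27.1, 24.4 and 25.8 TPM with saline and 24.6, 21.2, 23.1, 22.0 and 24.4 TPM with rmPRL. All but rmPRL library 1 lay under the saline range, and the difference was -0.16 ± 0.0577 (SE, limma adjusted p = 0.240). Genes on the opposite strand overlap 15.4% of its exonic bases. Gsr, the reductase that recycles glutathione, stood at 86.8, 86.5, 113, 95.8 and 111 TPM with saline and 91.1, 103, 106, 111 and 112 TPM with rmPRL. All rmPRL values fell inside the saline range, and the interval of the Gsr difference ran from -0.11 to 0.29 around 0.09 (limma adjusted p = 0.639). Leaving out each library in turn, it ran from 0.04 (saline library 2) to 0.14 (saline library 3).

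The soluble glutathione transferases had lower means in rmPRL for 15 of 17 tested genes (14 with TMM scaling, where Gstm4 turned), with a median difference of -0.18. Over all rows 56.5% had the lower mean. At an unadjusted p under 0.05 stood 4 genes (23.5%, against 16.0% of all rows). The 2 with higher means were Gstp1 and Gstp2 of the pi class. The alpha class held Gsta3, at 53.3, 48.3, 41.7, 36.9 and 46.5 TPM with saline and 44.5, 28.9, 37.0, 31.7 and 23.6 TPM with rmPRL. In rmPRL libraries 2, 4 and 5 Gsta3 lay under the saline range, while libraries 1 and 3 lay inside it, and the difference was -0.46 ± 0.154 (SE, limma adjusted p = 0.222). Gsta4, which conjugates the lipid oxidation product 4-hydroxynonenal, measured 279.5, 355, 348, 289.6 and 316 TPM with saline and 280.2, 243, 326, 242 and 237 TPM with rmPRL. Gsta4 showed the same 3 rmPRL libraries lowest (difference -0.26 ± 0.102, SE, limma adjusted p = 0.263).

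Of the mu class, 6 genes were tested and all 6 had lower means in rmPRL (56.5% of all rows did), except that Gstm4 turned with TMM scaling. Gstm1 (ENSMUSG00000058135.12) measured 1431, 1719, 1697, 1418 and 1563 TPM with saline and 1484, 1187, 1485, 1279.5 and 1179 TPM with rmPRL. Again rmPRL libraries 2, 4 and 5 lay under the saline range, and libraries 1 and 3 inside it. Its difference was -0.25 ± 0.0889 (SE, limma adjusted p = 0.242). Gstm2 (ENSMUSG00000040562.12), the highest of the 55 genes, stood at 1947, 2286, 2332, 2147 and 2243 TPM with saline and 2009.8, 1900.3, 2229, 1900.1 and 1868 TPM with rmPRL. The same 3 rmPRL libraries were lowest, and the 95% interval of the Gstm2 difference, -0.15, ran from -0.29 to 0.00 (limma adjusted p = 0.319), with a difference of -0.07 under the fibroblast covariate. Gstm1 and Gstm2 have coding sequences of 657 bases that differ at 92 (86.0% identity), and at most 7.73% of the 100-base stretches of any of the 12 genes above recur in another gene, the highest being Gstm1. Gstm5 averaged 79.5 ± 7.79 and 76.5 ± 6.59 TPM, Gstm7 26.4 ± 4.62 and 21.9 ± 5.62 TPM, Gstm4 18.0 ± 1.17 and 17.7 ± 1.30 TPM, and Gstm6 5.92 ± 1.45 and 5.73 ± 2.05 TPM (saline and rmPRL, SD, n = 5 each).

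The summed alpha class stood at 333, 404, 391, 331 and 363 TPM with saline and 325, 274, 363, 274 and 261 TPM with rmPRL. The summed mu class stood at 3523, 4145, 4147, 3698 and 3922 TPM with saline and 3634, 3202, 3846, 3287 and 3164 TPM with rmPRL. Both sums were lowest in rmPRL libraries 2, 4 and 5, and in the same 3 libraries the secretory marker Ovgp1 was lowest, at 4923, 5198 and 5432 TPM, against 8589 and 9034 TPM in rmPRL libraries 1 and 3. In saline, Ovgp1 measured 9214, 10134, 7183, 8449 and 7883 TPM, and the order differed. Saline library 3, lowest of its group for Ovgp1, had the highest mu sum, and saline library 1 had the lowest mu sum. A link between Ovgp1 and these sums was not tested. With the secretory list as a covariate the difference was -0.26 for Gsta3, -0.17 for Gsta4 and -0.13 for Gstm1, and with the fibroblast list it was -0.36, -0.15 and -0.13. The markers of multiciliated cells summed to 1765, 2347, 2735, 2085 and 2438 TPM with saline (2274 ± 368 TPM). With rmPRL they summed to 2133, 1960, 2311, 2259 and 2214 TPM (2175 ± 137 TPM, SD, n = 5 each). Of these 10 markers 9 were lower in mean, 2 with an unadjusted p under 0.05, against 56.5% and 9.91% of all rows.

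**Figure D4:**
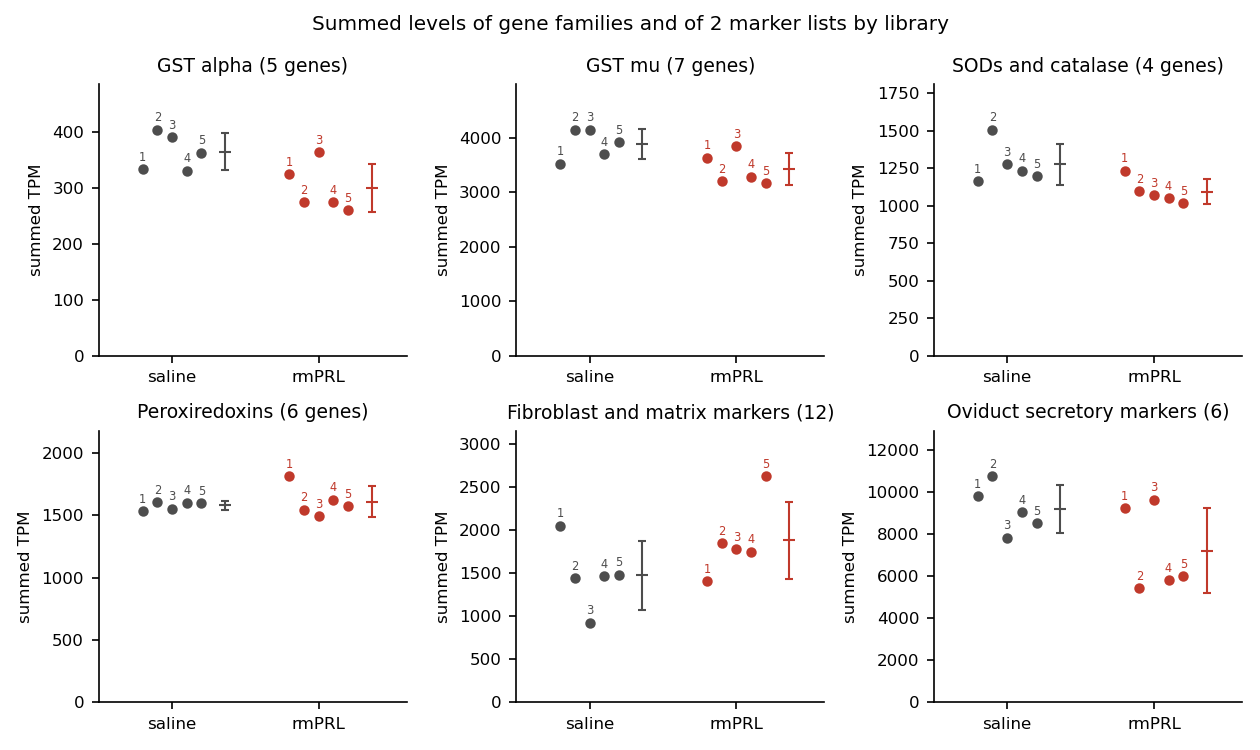
Summed TPM per library of antioxidant gene families beside summed marker lists of fibroblasts and matrix and of oviduct secretory cells (points numbered by library, grey saline, red rmPRL, bars mean ± SD, n = 5). The alpha and mu class sums and the secretory sum are lowest in rmPRL libraries 2, 4 and 5. Within saline, library 3 has the highest mu class sum and the lowest secretory sum.

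Near copies limit what the rows of some transferases can show, the pi class among them. Gstp1 averaged 431 ± 17.7 TPM with saline and 461 ± 40.6 TPM with rmPRL (SD, n = 5 each, difference 0.09, limma adjusted p = 0.482), and Gstp2 averaged 7.66 ± 1.62 and 8.70 ± 2.12 TPM. Their coding sequences of 633 bases differ at 12 (98.1% identity), and 52.8% of the 100-base stretches of Gstp1 and 63.5% of those of Gstp2 recur in another transcript, so the split of reads between them is uncertain. Shown are coding bases 1 to 90 of each from GENCODE vM21 (chromosome 19), with the 6 bases at which they differ in capitals.
Gstp1: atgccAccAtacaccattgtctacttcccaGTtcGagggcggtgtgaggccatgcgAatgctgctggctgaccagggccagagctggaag
Gstp2: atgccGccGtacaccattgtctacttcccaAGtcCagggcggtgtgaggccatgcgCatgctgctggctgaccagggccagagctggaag
Gstp3, the third pi gene, averaged 1.47 ± 0.110 TPM with saline and 1.34 ± 0.196 TPM with rmPRL (SD, n = 5 each).

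Theta and omega class genes had lower means in rmPRL for 5 of 5 tested genes, against 56.5% of all rows, and none stood at an unadjusted p under 0.05. Gstt2 varied most between libraries of the tested genes, 3.61-fold, at 205, 175, 105, 137 and 110.0 TPM with saline and 237, 65.5, 118, 115 and 93.0 TPM with rmPRL. Library 1 was the highest of each group. The groups overlapped, with 2 rmPRL libraries under and 1 over the saline range (difference -0.30, limma adjusted p = 0.630). Gstt1 averaged 41.3 ± 8.42 and 34.6 ± 4.80 TPM and Gstt3 49.5 ± 5.06 and 42.1 ± 6.97 TPM with saline and rmPRL (SD, n = 5 each), and 23.9% of the stretches of Gstt3 recur in an overlapping gene model. Gsto1 averaged 145 ± 19.3 and 127 ± 6.84 TPM, and Gsto2 6.86 ± 1.46 and 6.31 ± 0.932 TPM. Gstk1, the kappa class enzyme of mitochondria and peroxisomes, measured 22.4, 31.2, 27.3, 24.0 and 24.8 TPM with saline and 26.4, 18.7, 23.5, 20.8 and 19.4 TPM with rmPRL. Once more rmPRL libraries 2, 4 and 5 lay under the saline range, and the Gstk1 difference was -0.24 ± 0.109 (SE, limma adjusted p = 0.306), and it was smaller with the fibroblast and with the secretory covariate, at -0.11 and -0.10.

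Mgst1 (ENSMUSG00000008540.11, chr6:138140316-138156755), the membrane-bound transferase of the endoplasmic reticulum and mitochondria that also reduces lipid peroxides, measured 528, 576, 540.1, 507 and 511 TPM with saline and 539, 443, 455, 425 and 402 TPM with rmPRL. All rmPRL libraries but library 1 lay under the saline range. The difference was -0.24 ± 0.0772 (SE, 95% interval -0.41 to -0.07, limma adjusted p = 0.217), and -0.15 with the fibroblast and -0.16 with the secretory covariate. Mgst3, also of the membrane, averaged 31.5 ± 1.76 TPM with saline and 30.2 ± 3.87 TPM with rmPRL (SD, n = 5 each, difference -0.07, limma adjusted p = 0.681).

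None of the 6 tested glutathione peroxidases stood at an unadjusted p under 0.05 in the main fit. Gpx1 did so with TMM, quantile and rescaled values and with array weights. Of the 6 genes 2, Gpx1 and Gpx3, had the higher mean in rmPRL (3 with TMM and quantile scaling, where Gpx8 turned). Gpx3, the secreted plasma peroxidase, had the largest positive difference of the 47 genes and a wide spread, at 119, 91.6, 52.9, 125 and 86.3 TPM with saline and 101, 144, 105, 94.9 and 146 TPM with rmPRL. Saline library 3 lay far under the rest, and only rmPRL libraries 2 and 5 lay over the saline range. The difference was 0.35 (95% interval -0.14 to 0.84, limma adjusted p = 0.439), 0.16 without saline library 3 and 0.02 with the fibroblast covariate. The fibroblast and matrix sum was lowest in saline library 3 too, at 925 TPM, and highest in rmPRL library 5, at 2622 TPM.

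Gpx1, the widespread cytosolic peroxidase, measured 337, 253, 236, 301 and 241 TPM with saline and 299, 336, 279.6, 321 and 363 TPM with rmPRL. All 5 rmPRL libraries lay over the saline mean and 1 over the saline range (difference 0.23, limma adjusted p = 0.318). Macrophage and erythroid markers, from cells known to hold this enzyme, had higher means in rmPRL for 11 of 12 and 4 of 5 tested genes. Of these markers 6 and 0 were higher at an unadjusted p under 0.05, against 6.14% of all rows. The mean was higher for 7011 of the 16131 rows tested. Their sums ran from 228 to 382 and 114 to 338 TPM with saline and from 288 to 416 and 209.6 to 283 TPM with rmPRL, and their part in the Gpx1 values was not tested. Gpx4, which reduces peroxides of membrane lipids, averaged 416 ± 34.6 TPM with saline and 377 ± 27.2 TPM with rmPRL (SD, n = 5 each, difference -0.14, limma adjusted p = 0.348), and 48.4% of its stretches recur elsewhere, mostly in a pseudogene. Gpx8 and Gpx7 of the endoplasmic reticulum averaged 117 ± 5.42 and 20.3 ± 3.59 TPM with saline and 115 ± 5.23 and 20.1 ± 5.79 TPM with rmPRL, and Gpx2, known from gut epithelium, 26.2 ± 2.86 and 23.4 ± 5.17 TPM (SD, n = 5 each).

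Of the 6 peroxiredoxins 4 had lower and 2 higher means in rmPRL (3 and 3 with other scalings, where Prdx2 turned), with sums of 1578 ± 32.4 TPM with saline and 1609 ± 123 TPM with rmPRL (SD, n = 5 each), and Prdx1 was the gene at an unadjusted p under 0.05. Prdx1 (ENSMUSG00000028691.12), the most abundant and mainly cytosolic, measured 597, 521, 577, 601 and 637 TPM with saline and 701, 624, 589.6, 668 and 672 TPM with rmPRL. All rmPRL libraries lay over the saline mean and 3 over the saline range, and the difference was 0.15 ± 0.0676 (SE, limma adjusted p = 0.306). Prdx5, found in mitochondria, peroxisomes and cytosol, stood at 249.7, 331, 255, 256 and 257 TPM with saline and 366, 208, 207, 268 and 220.2 TPM with rmPRL. A single library of each group lay well over the others, saline library 2 and rmPRL library 1. The Prdx5 difference was -0.11 (limma adjusted p = 0.726), -0.25 without rmPRL library 1 and -0.04 without saline library 2, and 19.1% of its exonic bases overlap a gene on the opposite strand. Cytosolic Prdx2, mitochondrial Prdx3, Prdx4 of the endoplasmic reticulum and Prdx6, which uses glutathione, averaged 222, 123, 101 and 276 TPM with saline and 219.9, 127, 96.9 and 261 TPM with rmPRL (n = 5 each), with SDs of 16.5, 6.03, 3.50 and 19.5 TPM with saline and 14.0, 2.33, 6.76 and 17.7 TPM with rmPRL.

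In the thioredoxin system, means in rmPRL were higher for 3 genes and lower for 3, and mitochondrial Txn2 was the gene at an unadjusted p under 0.05. Txn2 (ENSMUSG00000005354.16, chr15:77915047-77929006) measured 117, 93.8, 96.1, 113 and 100.3 TPM with saline and 125, 118, 108, 125 and 126 TPM with rmPRL. All rmPRL libraries but library 3 lay over the saline range, and the difference was 0.21 ± 0.0743 (SE, 95% interval 0.05 to 0.37, limma adjusted p = 0.234). In the same organelle Sod2 had the lower mean. Cytosolic Txn1 averaged 259 ± 11.9 TPM with saline and 242 ± 17.6 TPM with rmPRL (SD, n = 5 each, difference -0.10, limma adjusted p = 0.429).

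Txnip, which binds and inhibits thioredoxin and responds to glucose, stood at 487, 868, 647, 527 and 561 TPM with saline and 526, 599, 528, 498 and 397 TPM with rmPRL. Saline library 2 was the highest, and only rmPRL library 5 lay under the saline range. The Txnip difference was -0.26 (limma adjusted p = 0.410) and -0.13 without saline library 2, and 19.4% of its exonic bases overlap a gene on the opposite strand. Txnrd1, the cytosolic thioredoxin reductase, measured 51.1, 48.8, 58.6, 56.9 and 60.4 TPM with saline and 54.3, 61.6, 50.1, 61.3 and 61.1 TPM with rmPRL, ranges that overlapped (difference 0.06, 95% interval -0.11 to 0.24, limma adjusted p = 0.706). Leaving out each library in turn, the Txnrd1 difference ran from 0.02 (saline library 2) to 0.11 (rmPRL library 3). Mitochondrial Txnrd2 stood at 12, 12.3, 14.5, 12.5 and 12.1 TPM with saline and 13.8, 13.7, 10.9, 12.6 and 10.8 TPM with rmPRL (difference -0.04, limma adjusted p = 0.835). Txnrd3, known from testis, averaged 10.9 ± 0.649 TPM with saline and 11.4 ± 0.901 TPM with rmPRL (SD, n = 5 each).

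Nqo1 and Hmox1, a quinone reductase and a heme oxygenase widely used as readouts of NRF2 and of heme or oxidant stress, gave no difference larger than the spread between libraries. Nqo1 measured 12.2, 5.47, 4.75, 6.70 and 6.62 TPM with saline and 8.98, 4.98, 5.32, 5.80 and 6.15 TPM with rmPRL, with library 1 highest in each group. Its difference was -0.13 (95% interval -0.60 to 0.34, limma adjusted p = 0.780) and 0.06 without saline library 1. Hmox1 measured 11.9, 9.46, 9.93, 21.4 and 9.97 TPM with saline and 11.7, 15.0, 10.8, 10.5 and 14.4 TPM with rmPRL. Saline library 4 was the highest, and the Hmox1 difference of 0.04 (95% interval -0.39 to 0.48, limma adjusted p = 0.927) was 0.24 without it.

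The 8 genes under the filter were Gpx5, Gpx6, Gsta1, Gsta2, Gsta5, Gstm3, Gstt4 and Mgst2. Gpx5, known from the epididymis, and Gsta5 were listed at 0 in every library, and Gstm3 and Gstt4 stayed at or under 0.319 and 0.899 TPM. Gpx6, known from olfactory epithelium, stood at 0, 0.117, 0.0648, 0.0172 and 0 TPM with saline and 0, 0.282, 0, 0.0267 and 0.0574 TPM with rmPRL. Gsta1 was listed at 0.0643, 0, 0.125, 0 and 0 TPM with saline and 0, 0, 0.0524, 0 and 0 TPM with rmPRL, so both were at or near 0 throughout. Gsta2, an alpha class gene known from liver, measured 0.228, 0.390, 0.584, 4.42 and 0.238 TPM with saline and 0.127, 2.80, 0.0729, 0.0588 and 0.474 TPM with rmPRL, and 35.0% of its 100-base stretches recur in near copies. Mgst2, a microsomal transferase that in human can form leukotriene C4, measured 0.670, 1.38, 0.790, 2.36 and 0.436 TPM with saline and 0.950, 2.89, 0.289, 0.270 and 0.265 TPM with rmPRL. In each group Gsta2 and Mgst2 were highest in the same library, saline library 4 and rmPRL library 2, and so was Cyp11a1, which begins steroid synthesis in luteal cells, at 0.851, 2.78, 5.44, 135 and 6.27 TPM with saline and 5.20, 125, 0.625, 0.340 and 4.22 TPM with rmPRL. The 11 luteal and steroid-making markers, 7 of them tested with 5 lower in mean and none at an unadjusted p under 0.05, summed to 595 TPM in saline library 4 (proestrus), to 754 TPM in rmPRL library 2 (diestrus), and to between 83.2 and 169 TPM in the other 8. Exact two-sided permutation tests over all assignments of the libraries to groups gave p = 0.500 for Gsta2 and p = 0.571 for Mgst2 (Benjamini-Hochberg 0.571 for each over the 2 tests). With those 2 libraries left out, 8 antioxidant genes, all among the 12, stood at an unadjusted p under 0.05, 7 lower and 1 higher (17.0% of the 47, against 13.1% of all rows in that fit).

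**Figure D5:**
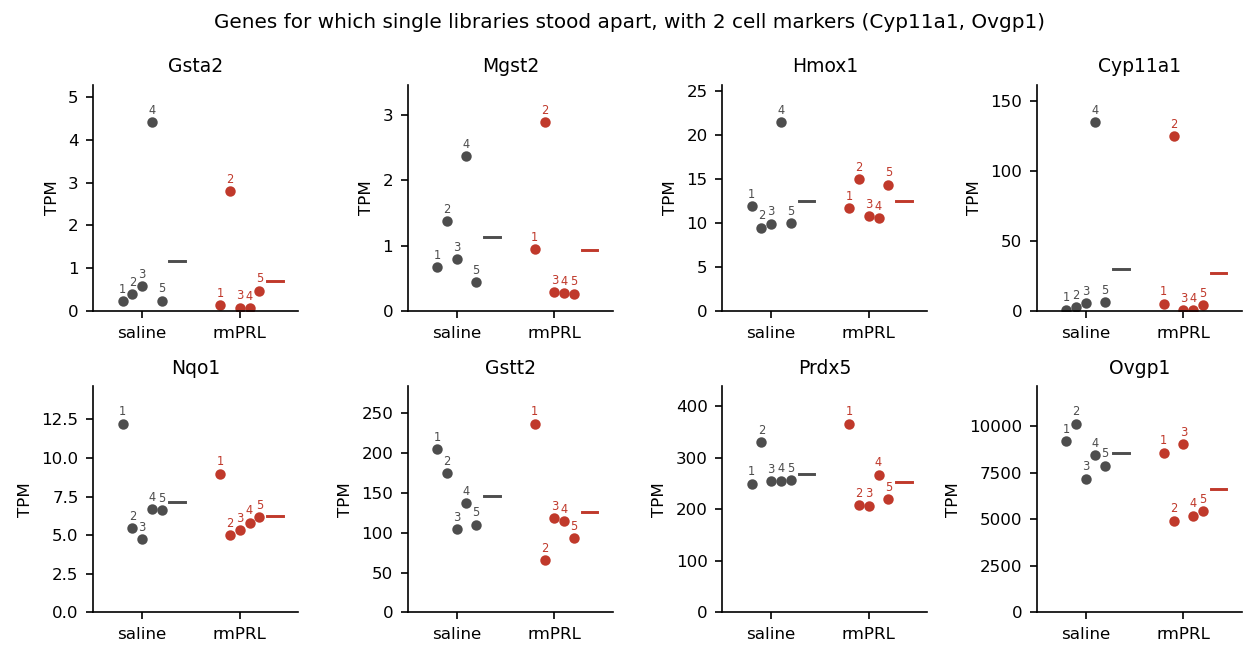
TPM per library of genes in which single libraries stood apart, with the cell markers Cyp11a1 and Ovgp1 (points numbered by library, grey saline, red rmPRL, lines at group means). Hmox1 in saline library 4 (21.4 TPM), Nqo1 in saline library 1 (12.2 TPM) and Gsta2 and Mgst2 in saline library 4 and rmPRL library 2 lie away from their groups.

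Of 104 further genes of the same pathways, 98 were tested and 0 passed the limma test at an adjusted p of 0.05. Their smallest adjusted p was 0.152. At an unadjusted p under 0.05 stood 20 of them (20.4%, against 16.0% of all rows), 15 lower and 5 higher in rmPRL, and 55 had the lower mean. The groups did not overlap for 3 of the 98 genes, Mafg, Hagh and Selenot (3.06%, against 3.07% of all rows). Regulators of the antioxidant response had lower means for 9 of 11 genes, where 56.5% of all rows had the lower mean. Of the 11, 3 were lower at an unadjusted p under 0.05 (27.3%, against 9.91% of all rows). Mafg, a small MAF partner of NRF2, averaged 76.2 ± 3.19 TPM with saline and 65.5 ± 3.50 TPM with rmPRL with no overlap (difference -0.21, limma adjusted p = 0.152). Nfe2l2 itself averaged 172 ± 9.42 and 149 ± 14.4 TPM (difference -0.21, limma adjusted p = 0.227), and Cul3, the ligase through which Keap1 marks NRF2 for breakdown, and Sqstm1, which binds Keap1, averaged 99.4 and 303 TPM with saline and 90.5 and 274 TPM with rmPRL. The Nfe2l2 transcript level says nothing of the NRF2 protein, which is set mainly by its breakdown.

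Of 20 other tested genes known to be induced by NRF2, 13 had lower means, 6 with an unadjusted p under 0.05, and 7 higher means, 0 at that level. Among all rows tested, 56.5% had the lower mean, and 9.91% were lower and 6.14% higher at an unadjusted p under 0.05. The glutathione conjugate exporter Abcc1 averaged 75.5 ± 6.92 TPM with saline and 61.3 ± 4.82 TPM with rmPRL (difference -0.29, limma adjusted p = 0.166), and the carbonyl reductase Cbr1 129.7 ± 16.2 and 106 ± 10.7 TPM (difference -0.29, limma adjusted p = 0.221). The exporter Abcc4 and the reductase Cbr3 differed by -0.31 and -0.31 (limma adjusted p = 0.208 and 0.233). Among 22 genes of glutathione recycling, export and breakdown, 13 had lower means, and 2 stood at an unadjusted p under 0.05 in each direction. Hagh, a glyoxalase that frees glutathione, averaged 34.0 ± 1.15 TPM with saline and 28.5 ± 2.58 TPM with rmPRL with no overlap (difference -0.25, limma adjusted p = 0.166), and the oxoprolinase Oplah differed by -0.31 (limma adjusted p = 0.217). Slc25a39, the carrier that brings glutathione into mitochondria, had the higher mean, 117 ± 4.24 TPM with rmPRL against 108 ± 3.15 TPM with saline (limma adjusted p = 0.249), and Gstcd differed by 0.19 (limma adjusted p = 0.272).

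Selenoproteins and the genes that make them had higher means for 11 of 18 genes, 2 in each direction at an unadjusted p under 0.05. Selenot, a thioredoxin-like protein of the endoplasmic reticulum, averaged 152 ± 11.8 TPM with rmPRL against 124 ± 9.20 TPM with saline with no overlap (difference 0.29, limma adjusted p = 0.152), while Selenop, the secreted selenium carrier, averaged 332 ± 79.6 against 466 ± 138 TPM (difference -0.47, limma adjusted p = 0.288). Selenow and Selenos differed by 0.15 and -0.15 (limma adjusted p = 0.279 and 0.272). Of 18 other thioredoxin and sulphur genes, 11 had lower means, 2 with an unadjusted p under 0.05, and 1 gene with the higher mean stood at that level. That gene was Txnl1, at 78.5 ± 3.64 TPM with rmPRL against 69.1 ± 5.57 TPM with saline (limma adjusted p = 0.224). Nnt, the transhydrogenase that supplies NADPH in mitochondria, averaged 8.00 ± 2.49 TPM with rmPRL against 11.4 ± 2.21 TPM with saline (difference -0.49, limma adjusted p = 0.260). Part of Nnt is deleted in the C57BL/6J substrain, and the substrain is not given in the sources used here. Superoxide sources and copper supply genes had higher means for 7 of 9 tested genes, 0 at an unadjusted p under 0.05, with the phagocyte oxidase subunit Cybb at 3.78 ± 0.749 TPM with rmPRL against 3.00 ± 0.706 TPM with saline (limma adjusted p = 0.402). At an unadjusted p under 0.05 in either direction stood 18.2% of the glutathione recycling, export and breakdown genes and 22.2% of the selenoprotein genes. For the other thioredoxin and sulphur genes it was 16.7%, against 16.0% of all rows. The mean was lower for 56.5% of all rows. Errors in the last 3 paragraphs are SDs over 5 libraries.

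Sums of the remaining marker lists of the tissue overlapped between the groups, as did those of the fibroblast and secretory lists. Smooth muscle markers summed to 1869.7 ± 717 TPM with saline and 2309.6 ± 484 TPM with rmPRL (7 of 7 tested higher in mean), adipocyte markers to 94.9 ± 57.7 and 172 ± 119 TPM (6 of 6 higher), endothelial markers to 68.7 ± 14.2 and 80.0 ± 18.7 TPM (6 of 7 higher, 1 at an unadjusted p under 0.05) and mesothelial markers to 422 ± 40.9 and 397 ± 17.2 TPM (3 of 5 higher, 1 at an unadjusted p under 0.05), each SD over 5 libraries. Foxj1, the defining gene of multiciliated cells, averaged 689 ± 113 TPM with saline and 741 ± 48.2 TPM with rmPRL (SD, n = 5 each). It went against its list, in which 9 of 10 markers had the lower mean, 2 at an unadjusted p under 0.05. Among all 16131 rows tested, 7011 had the higher and 9120 the lower mean. At an unadjusted p under 0.05 stood 6.14% of all rows as higher and 9.91% as lower. Foxj1 and Ovgp1, defining genes of the oviduct epithelium, were present in every library.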

How the data were processed

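RNA-seq libraries were trimmed with Trimmomatic (quality 15, at least 20 bases), aligned to mm10 with HISAT2 and SAMtools, counted with featureCounts and compared with DESeq2 by the authors, as stated in the series text and per the submitters' processing notes. Kits were stranded and reads paired at 100 bases. The TPM values deposited by the authors, named scaled, summed to 999445 to 999607 per library; how they were computed, the annotation, versions and the strand setting of the counting are not given in the sources used here, so genes with overlapping exons are uncertain.

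Groups came from the labels. Values as log2(TPM + 1) of rows that reached 1 TPM in 5 or more of the 10 libraries were fitted with limma 3.58.1 in R 4.3.3 (lmFit, eBayes with trend and robust estimation, group as the only term, two-sided, Benjamini-Hochberg over all 16131 rows, threshold 0.05). Differences on this scale understate changes of low genes. The fit was tested on simulated data. Figures were drawn with matplotlib 3.10.9 in Python 3.11.15. Positions and coding sequences are from GENCODE vM21 (GRCm38), promoters from RefSeq (GRCm38.p6). The reference gave names to 2645 of 2654 rows that lacked a symbol.

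The members, pathway lists, marker lists and tests were chosen with earlier results of these data known. Values in every library were given for genes with an unadjusted p under 0.05, genes whose groups did not overlap, the 6 highest, genes with a library far from its group, and the genes always given (Nqo1, Hmox1, Cat, Gclc, Gclm, Gsr, Gss, Txnip, Txnrd1, Gpx3), with up to 4 genes per pathway list by smallest p. Gpx1 and Gstt2 were added after their values were seen. Alternatives were other pseudocounts, filters and scalings, array weights, no trend, a replicate block, covariates and libraries left out.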

Additional observations from a re-analysis of the deposited data

Results flagged for a closer look

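In 9 of 106 groups of 5 libraries, a single library lay far from the other 4 for its gene (Dixon's test at the 95% level); chance alone flags about 1 in 20 such groups, and families of related genes are not independent. Among tested genes, Hmox1 stood at 21.4 TPM in saline library 4, Nqo1 at 12.2 TPM in saline library 1, Prdx5 at 331 TPM in saline library 2 and Txnrd2 at 14.5 TPM in saline library 3. Among genes under the filter, Gsta2 reached 4.42 TPM in saline library 4, and in rmPRL library 2 it reached 2.80 TPM, Mgst2 2.89 TPM and Gpx6 0.282 TPM. Gsta1 stood at 0.0524 TPM in rmPRL library 3, where the other rmPRL libraries are listed at 0.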

How the results depend on the processing

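Over 23 alternatives, 16 of 22 named genes kept the side of 0 of their difference in all of them. This count is no test of stability, since 12 of the 22 were named for an unadjusted p under 0.05 in these data. The other filters, the fit without trend and the replicate block also leave the size of a difference unchanged. All rows past the adjusted p of 0.05 in limma numbered 4; they were 270 with array weights, 2 with the replicate block, 1 with the secretory covariate and 0 with no filter, with both luteal-high libraries left out and with the fibroblast covariate (3276, 2081 and 1298 rows at an unadjusted p under 0.05), and 1 to 17 with single libraries left out. Antioxidant genes past it numbered 0 except 2 with array weights (Sod2 and Gclm), and other pathway genes 0 except 4 with array weights. Antioxidant genes at an unadjusted p under 0.05 numbered 12, and 3 with the fibroblast covariate, 6 with the secretory covariate and 8 to 17 with single libraries left out. The 8 to 17 genes were 17.0 to 36.2% of the 47. The share of all rows also moved, from 10.8% without saline library 2 to 23.0% without saline library 1. Sod2 ranged from -0.43 to -0.30 (limma adjusted p 0.0367 to 0.468). Without rmPRL library 2, the only one from diestrus, 1 row in all and 0 antioxidant genes passed. In that fit 10 antioxidant genes stood at an unadjusted p under 0.05 (21.3%, against 12.6% of all rows), with Gsta4, Sod1 and Gstk1 lost and Mgst3 gained. Sod2 differed there by -0.36 (limma adjusted p = 0.238). A part of estrous stage was not tested.

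Differences near 0 turned sign, on the log2 scale: with the fibroblast covariate Prdx5 (0.0219), Txnrd2 (0.0559), Hmox1 (-0.0925) and Gclc (-0.0125); with the secretory covariate Prdx5 (0.0768), Hmox1 (-0.118), Nqo1 (0.00379), Txnrd1 (-0.00608) and Gclc (-0.0252); with array weights Gclc (-0.0161). With single libraries left out Txnrd2 ran from -0.0781 to 0.00513, Hmox1 from -0.0326 to 0.24, Nqo1 from -0.25 to 0.0593 and Gclc from -0.0536 to 0.0728. The cause was not tested.

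Replicate numbers 1 to 5 occur in both groups, and deviations of same-numbered libraries over all rows tested correlated at -0.25 to 0.11. These correlations gave no sign of pairing by number but cannot exclude it, and the main fit took the libraries as unpaired. With the replicate number as a block 2 rows in all and 0 antioxidant genes passed, and 13 antioxidant genes stood at an unadjusted p under 0.05 (27.7%, against 13.7% of all rows). The counts behind the TPM were not used here, which leaves the counting error of low genes such as Gsta2 unmeasured.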
